A study of Mus musculus with 2 samples.

Results

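The nuclear genes of oxidative phosphorylation were described in melanocyte stem cells (McSCs) at early anagen and in mature melanocytes of the hair bulb. Genes were taken by symbol, as those starting with Nduf, Uqcr, Cox4i, Cox5, Cox6, Cox7, Cox8 or Atp5 and the genes Sdha to Sdhd. Symbols containing -ps were left out. The rule matched 93 genes, of which 91 had at least 1 UMI (unique molecular identifier, a count of 1 captured transcript) among the 19777 genes with a UMI. Cox6a2 and Cox7b2, isoforms best known from muscle and testis, had none. The 91 genes comprised 36 subunits of complex I, 4 of complex II, 8 of complex III, 17 of complex IV and 17 of complex V, and 9 factors that assemble the complexes or join them into supercomplexes without being counted here as subunits.

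In the inner mitochondrial membrane, complexes I and II pass electrons from NADH and succinate to ubiquinone, complex III passes them on to cytochrome c, and complex IV reduces oxygen. The protons pumped by complexes I, III and IV drive ATP synthase, complex V. Most subunits are encoded in the nucleus, while the core membrane subunits of every complex but complex II are encoded in mitochondrial DNA, so that both genomes supply parts of the same enzymes. In hair follicles, McSCs lie in the bulge and hair germ, divide when a hair cycle starts, and yield bulb melanocytes that make the pigment of the hair shaft.

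Both libraries were droplet single-cell RNA-seq libraries of GFP+ cells from Dct-rtTA; tetO-H2B-GFP mice, in which doxycycline given in the chow for 4 days switches on a nuclear GFP in cells with an active Dct promoter. Early-anagen McSCs came from back skin 4 days after depilation at 8 weeks of age, with trypsin used to free the epidermis. Bulb melanocytes came from microdissected bulbs of full anagen follicles at 5 weeks of age, with collagenase and dispase. Each library pooled the cells of 4 mice, so that values of single mice were not kept, and the GFP gate admits any cell in which the Dct promoter was active. The early-anagen library was made with version 3 of the 10x 3′ kit and the bulb library with version 2. Since either condition had 1 library, differences between them could not be tested. No depilation was described for the bulb mice. Condition, depilation, kit, depth, age and dissociation thus changed together, and their parts in a difference cannot be told apart.

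Cells were kept when they had at least 1 Dct UMI, fewer than 3 Krt10 and Krt14 UMIs, less than 5% of UMIs from mitochondrial genes, and more than 10000 UMIs in the early-anagen library or more than 5000 in the bulb library. This left 2785 of 11010 early-anagen barcodes and 3734 of 4327 bulb barcodes, with medians of 24528 and 14287 UMIs per cell and totals of 75718468 and 55883067 UMIs. No barcode was shared between the chosen cells. The 679 early-anagen cells that passed the UMI and mitochondrial limits but not the Dct and Krt limits held the members at 37171 CPM in sum, close to the chosen cells. An exception among single members was Ndufa4l2, with 1043 UMIs or 70.1 CPM in the cells left out. All 8 melanocyte markers were detected in both libraries, summing to 24639 CPM (UMIs scaled to a total of 1000000 over the summed cells) at early anagen and 67431 CPM in the bulb. Of the markers of other cell types, Schwann cell markers had the highest sum, 192 CPM at early anagen and 437 CPM in the bulb. Epidermal keratinocyte markers summed to 69.6 and 51.7 CPM, with Krt1, Krt15 and Krtdap at 0 in the bulb, immune markers to 17.6 and 7.50 CPM, and fibroblast markers to 1.32 and 0.823 CPM. Muscle markers, the cell type with isoforms of its own in complex IV, summed to 0.198 and 0.0895 CPM, with Tnnt3 and Myh4 at 0 in both libraries. Dct of the melanocyte list and Krt10 and Krt14 of the keratinocyte list were used to choose the cells. The sums of these lists are thus partly set by that choice. The part of other cell types in the results below was not tested.

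Nuclear genes of oxidative phosphorylation took a larger share of the transcriptome in melanocytes of the bulb. Summed over cells, the 91 genes held 2806580 UMIs or 37066 CPM at early anagen and 2763077 UMIs or 49444 CPM in the bulb, or 0.42 on the log2 scale for bulb over early anagen (95% interval 0.41 to 0.42). Intervals of ratios are exact for 2 Poisson counts and cover counting error only, not differences between cells, mice or libraries. Of the 91 genes, 86 reached a mean of 10 CPM over both groups. Among these 86, the median log2 ratio was 0.45, against -0.11 over all 7298 genes of that level. Members at least 1.5-fold higher in the bulb numbered 31, or 36%, where 27% of all genes were. Members at least 1.5-fold lower numbered 4, or 4.65%, where 36% of all genes were. So at 1.5-fold the share of members higher in the bulb was somewhat above that of all genes, while the share of members lower in the bulb was far below it. At 2-fold the share of members higher was below that of all genes.

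The reference for CPM weighs on these values, since a few gene groups held much of the total. Cytosolic ribosomal protein genes held 247212 CPM at early anagen and 112956 CPM in the bulb, while the sum of the melanocyte markers was higher in the bulb, with 5 of the 8 higher by 1.5-fold and Kit lower (486 and 108 CPM). With edgeR TMM factors the median of all genes shifted by 0.35 and with median-of-ratios size factors by 0.48, and the split of all genes into higher and lower by 1.5-fold changed from 1974 and 2627 to 2659 and 1902 and to 2925 and 1653. Taken from the median of all genes, the members' median stood at 0.57 in the main scaling, 0.52 with TMM factors, 0.51 with median-of-ratios factors and 0.61 when mitochondrial, ribosomal protein and pigmentation genes were left out of the total. A scaling adds the same amount to every log2 ratio, so this distance could change only through the genes that reached 10 CPM. Each single ratio does depend on the scaling. With genes of at least 1 UMI in both groups, in place of 10 CPM, the distance was 0.85 in the main scaling.

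**Figure D1:**
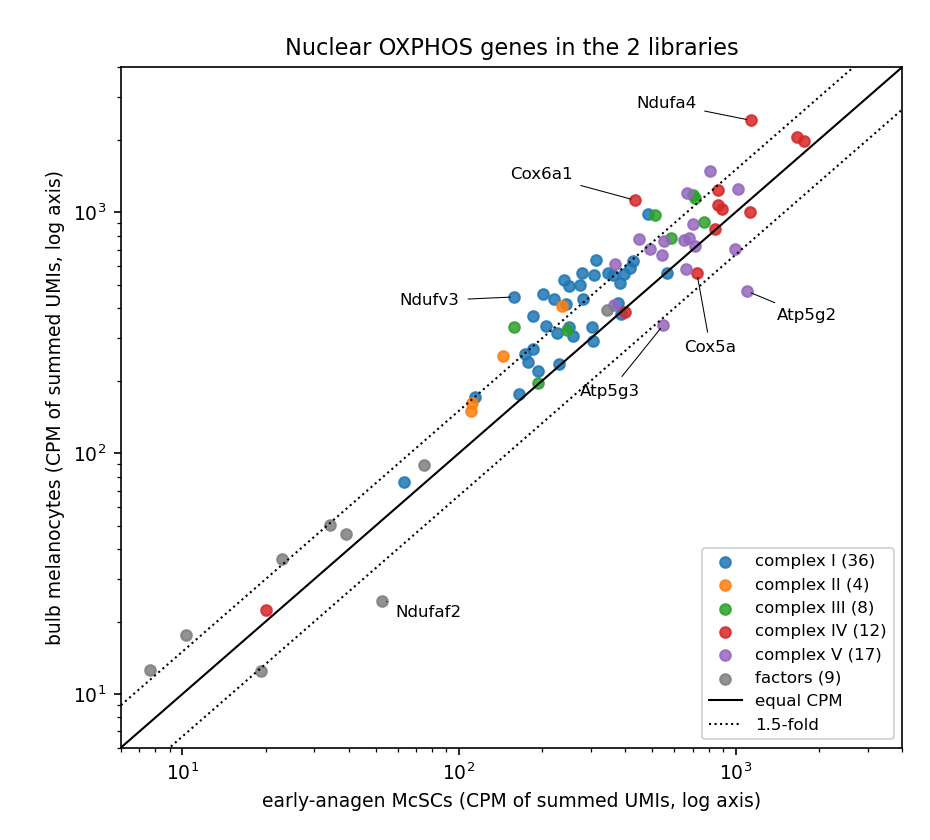
CPM of the 86 members of at least 10 CPM in early-anagen McSCs (horizontal) and bulb melanocytes (vertical), both axes logarithmic, 1 point per gene coloured by complex; the solid line marks equal CPM and the dotted lines a 1.5-fold difference. Most points lie above the solid line, 31 lie above the upper dotted line, and 4 lie below the lower one, among them Atp5g2, Atp5g3 and Ndufaf2.

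The complexes did not move evenly. Complex I summed to 9940 CPM at early anagen and 15123 CPM in the bulb, a log2 ratio of 0.61 (0.60 to 0.61). Complex II summed to 602 and 973 CPM, a log2 ratio of 0.69 (0.68 to 0.71). Complex III summed to 3877 and 5842 CPM, a log2 ratio of 0.59 (0.58 to 0.60). These summed ratios lay close together. Complex IV went from 10727 to 13714 CPM, a log2 ratio of 0.35 (0.35 to 0.36). Complex V went from 11317 to 13109 CPM, a log2 ratio of 0.21 (0.21 to 0.22). The ratios of complexes IV and V, and of the factors at 0.18 (0.16 to 0.20), were thus smaller than those of complexes I, II and III. The order of the sums does not depend on the scaling, which adds the same amount to every log2 ratio. All summed ratios stayed above 0 in the scalings tried, the lowest being 0.02 for the factors and 0.05 for complex V with the reduced total. The median over members of at least 10 CPM was 0.19 in complex IV, 0.29 in complex V and 0.26 in the factors. Among these groups the order thus differed between sums and medians. Complexes I, II and III also had larger medians, at 0.57, 0.66 and 0.55.

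**Figure D2:**
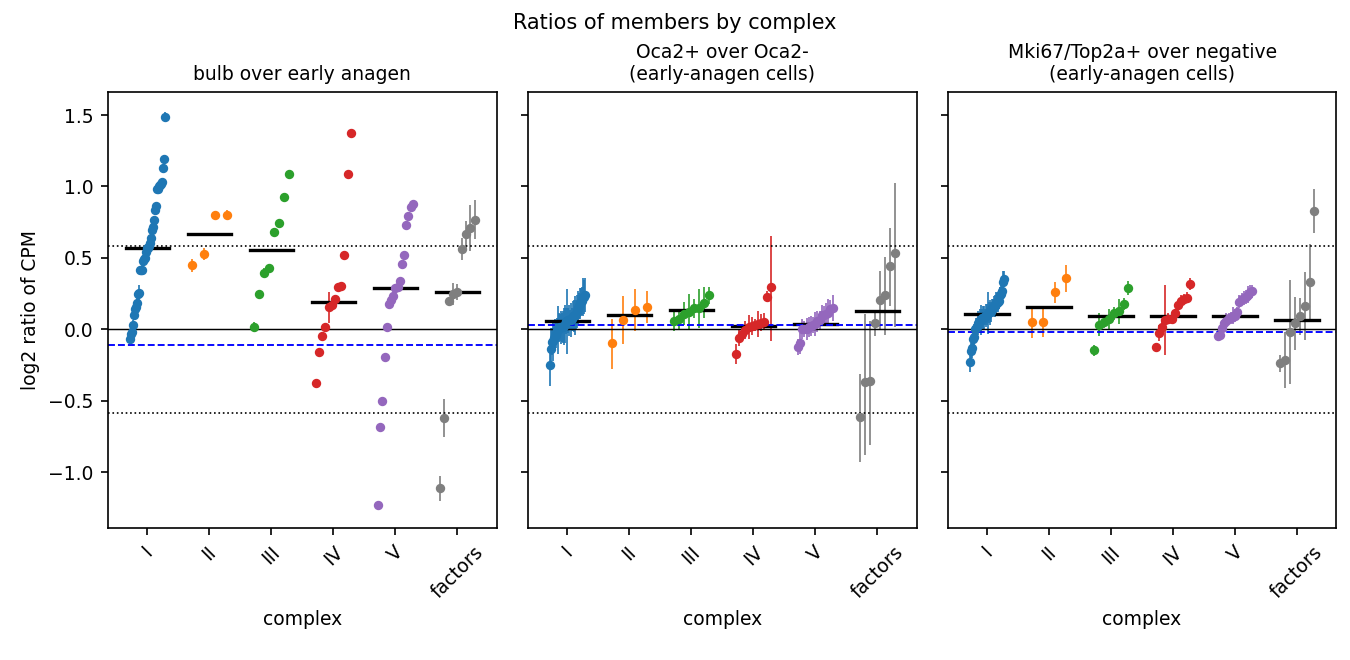
Log2 ratio of CPM for each member of at least 10 CPM, by complex, for bulb over early anagen (left), early-anagen cells with over without an Oca2 UMI (middle) and early-anagen cells with over without a Mki67 or Top2a UMI (right). Points are genes with 95% counting intervals, short black bars are medians of a complex, the dashed line is the median of all genes and dotted lines mark 1.5-fold; ratios spread from -1.23 to 1.49 on the left and stay mostly within 1.5-fold in the other panels.

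In complex I, which takes electrons from NADH, 16 of 36 subunits were at least 1.5-fold higher in the bulb. This was 44.4%, against 27% of all genes. None was 1.5-fold lower, against 36% of all genes, and the median log2 ratio was 0.57. Ndufv3, an accessory subunit of the NADH-oxidizing arm, had 12018 UMIs or 159 CPM at early anagen and 24881 UMIs or 445 CPM in the bulb. Its log2 ratio of 1.49 (1.46 to 1.52) was the largest of all members. Ndufa13, the subunit with the most UMIs, went from 481 to 986 CPM, a log2 ratio of 1.03 (1.01 to 1.05). Ndufa13 shares 8379 bases of chromosome 8 with Yjefn3 on the same strand, the only member with a same-strand overlap in the GENCODE annotation, so its counts are uncertain.

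Complex II, succinate dehydrogenase, is the only complex with no subunit encoded in mitochondrial DNA. All 4 genes were higher in the bulb with intervals above 0, as were 3207 of all 7298 genes. Of the 4, 2 (50%) were at least 1.5-fold higher, against 27% of all genes. None was lower by that fold, against 36% of all genes. The flavoprotein gene Sdha had 112 CPM at early anagen and 161 CPM in the bulb, a log2 ratio of 0.53 (0.49 to 0.57). The iron-sulphur subunit gene Sdhb had 235 and 409 CPM, a log2 ratio of 0.80 (0.77 to 0.83). Of the membrane anchors, Sdhc had 110 and 150 CPM and a log2 ratio of 0.45 (0.40 to 0.49). The other anchor, Sdhd, had 145 and 252 CPM and a log2 ratio of 0.80 (0.77 to 0.84). The 4 genes formed 2 pairs by size of the ratio, Sdhb with Sdhd past 1.5-fold and Sdha with Sdhc below it, and the intervals of the pairs did not overlap.

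In complex III, 4 of 8 genes (50%) were at least 1.5-fold higher in the bulb and none was lower by that fold. Of all genes, 27% and 36% were. Uqcrc1, a core protein on the matrix side, had 158 CPM at early anagen and 335 CPM in the bulb, a log2 ratio of 1.08 (1.05 to 1.12). Uqcrq, a small accessory subunit and the member of this complex with the most UMIs, had 702 and 1177 CPM and a log2 ratio of 0.75 (0.73 to 0.76). Uqcrc2, the partner core protein of Uqcrc1, was looked up after its value was seen, and had 193 and 195 CPM and a log2 ratio of 0.01 (-0.02 to 0.05). The genes of the paired core proteins thus differed in their ratios by more than counting error.

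Complex IV, cytochrome c oxidase, has several subunits with tissue isoforms. Of its 12 genes of at least 10 CPM, 2 were 1.5-fold higher in the bulb. This was 16.7%, below the 27% of all genes. None was lower by that fold, against 36% of all genes. Cox6a1, the isoform of subunit 6a found in most tissues, had 32771 UMIs or 433 CPM at early anagen and 62739 UMIs or 1123 CPM in the bulb, a log2 ratio of 1.38 (1.36 to 1.39). Ndufa4, named for complex I but assigned to complex IV, had 1135 and 2408 CPM and a log2 ratio of 1.09 (1.07 to 1.10). These values stood apart from the other genes of the complex, whose log2 ratios ran up to 0.52 in Cox6b1. Cox5a, which binds the matrix face of the enzyme, had 725 and 558 CPM, a log2 ratio of -0.38 (-0.40 to -0.36) that became 0.05 with median-of-ratios factors.

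The other genes of complex IV of at least 10 CPM were within 1.5-fold in the main scaling. Cox4i1, the common isoform of the subunit 4 through which ATP is known to act on the enzyme, had 1664 CPM at early anagen and 2043 CPM in the bulb, a log2 ratio of 0.30 (0.28 to 0.31). Cox8a, the member of this complex with the most UMIs over both libraries, went from 1765 to 1982 CPM, a log2 ratio of 0.17 (0.16 to 0.18). Cox7a2 had 866 and 1070 CPM, with a log2 ratio of 0.30 (0.29 to 0.32). These common isoforms thus had smaller ratios than Cox6a1, which is also a common isoform. Cox6b1 had 861 and 1232 CPM and a log2 ratio of 0.52 (0.50 to 0.53). Cox7b had 398 and 386 CPM, a log2 ratio of -0.04 (-0.07 to -0.02) that became 0.27 with TMM factors.

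Most isoforms known from muscle, testis or hypoxia were near the limit of detection in the chosen cells of both libraries. Cox4i2, the hypoxia-linked partner of Cox4i1, had 8 UMIs at early anagen and 2 in the bulb. Ndufa4l2, the hypoxia-linked paralog of Ndufa4, had 20 and 3 UMIs in the chosen cells, but 1043 UMIs in the 679 early-anagen cells left out by the Dct and Krt limits. Without these limits its log2 ratio went from -2.30 to -7.79, so its level depended on the choice of cells. Cox8b, of muscle, had 0 and 3 UMIs, and Cox8c, of testis, had 1 and 0. At these counts of the chosen cells no direction is read. Cox7a1, the muscle isoform of subunit 7a, was a little above them with 129 and 80 UMIs, or 1.70 and 1.43 CPM, and its log2 ratio of -0.25 had an interval of -0.67 to 0.16. Cox6b2, best known from testis, was detected well with 1520 and 1249 UMIs, or 20.1 and 22.4 CPM. Its log2 ratio of 0.15 (0.05 to 0.26) became -0.00 with the reduced total. The part of free RNA in these counts was not estimated.

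In complex V, ATP synthase, 4 of 17 genes (23.5%) were at least 1.5-fold higher in the bulb, against 27% of all genes. Another 2 (11.8%) were 1.5-fold lower, against 36% of all genes. They were the only subunits of at least 10 CPM in any complex lower by that fold. Atp5l, subunit g of the membrane part, went from 807 CPM at early anagen to 1480 CPM in the bulb, a log2 ratio of 0.87 (0.86 to 0.89). Atp5b, the catalytic beta subunit and the gene with the most UMIs in this complex, went from 1024 to 1251 CPM, a log2 ratio of 0.29 (0.27 to 0.30). Both genes lower by 1.5-fold code for subunit c, the ring that turns as protons pass. Atp5g2 had 83563 UMIs or 1104 CPM at early anagen and 26254 UMIs or 470 CPM in the bulb, a log2 ratio of -1.23 (-1.25 to -1.21). Atp5g3 had 548 and 340 CPM and a log2 ratio of -0.69 (-0.71 to -0.66). Atp5g1, the remaining gene, had 650 and 765 CPM and a log2 ratio of 0.23 (0.22 to 0.25).

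The genes Atp5g1, Atp5g2 and Atp5g3 code for the same mature subunit c behind different mitochondrial import sequences. Their sum went from 2301 CPM at early anagen to 1575 CPM in the bulb, against the direction of the sum of the list. Of the 86 members of at least 10 CPM, 71 had intervals above 0 and 11 below, and of all 7298 genes 3207 and 3714 did. Interval width depends on the UMIs of a gene, so these counts are not compared. Atp5e of the same complex was also lower in the bulb, with 996 and 702 CPM. Atp5g1 made up 28.2% (exact binomial interval 28.03 to 28.45) of the UMIs of the 3 genes at early anagen and 48.6% (48.2 to 48.9) in the bulb. Atp5g2 made up 48.0% (47.7 to 48.2) and 29.8% (29.5 to 30.1). Atp5g3 stayed near 23.8% (23.60 to 24.01) and 21.6% (21.3 to 21.9). These shares are free of the scaling, since the 3 genes have the same total. Within the early-anagen library the share moved less: Atp5g2 held 50.01% (49.47 to 50.55) of the UMIs in cells without Oca2, Mki67 and Top2a UMIs, 47.3% (45.8 to 48.8) in cells with Oca2 alone, 47.4% (46.7 to 48.0) in cells with Mki67 or Top2a alone, and 48.5% (46.1 to 51.0) in the 69 cells with both. In the bulb, the 479 cells without an Oca2 UMI at 5000 UMIs per cell held 30.9% Atp5g2 and the 3255 cells with one 29.7%. The share of Atp5g2 was thus lower in early-anagen cells with Oca2 alone, or with Mki67 or Top2a alone, than in those with neither, by less than the libraries differed.

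**Figure D3:**
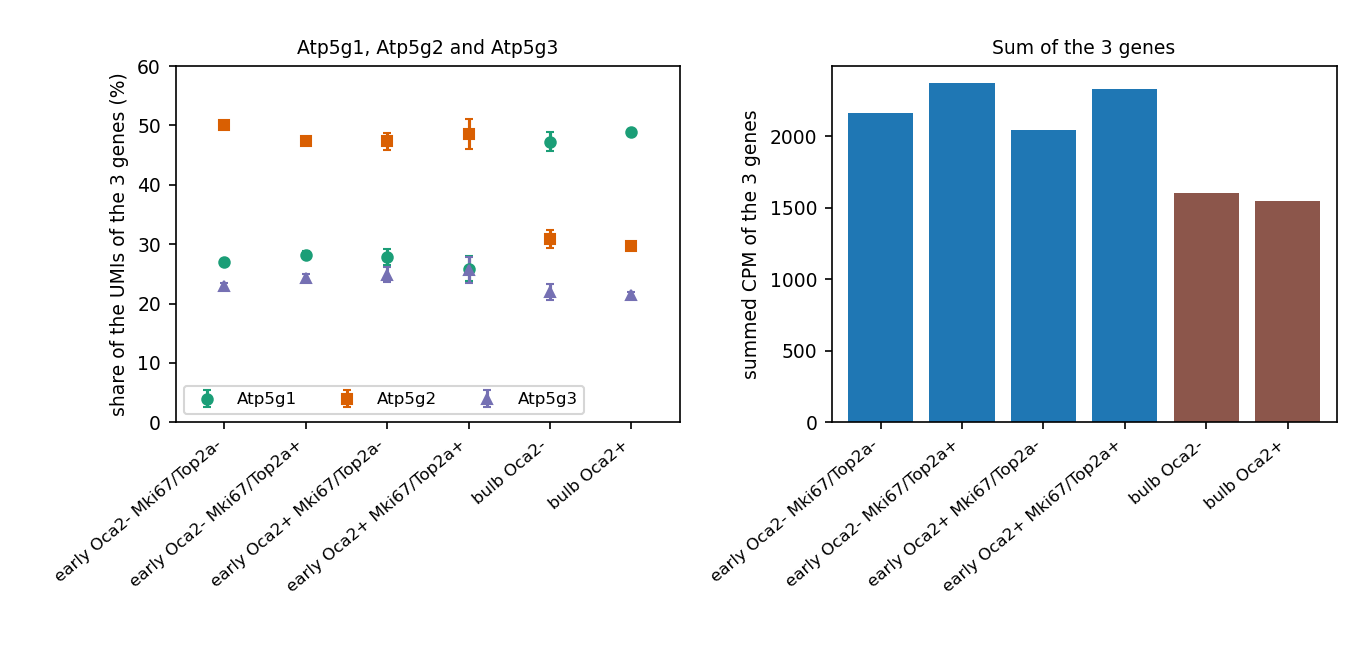
Left, share of Atp5g1, Atp5g2 and Atp5g3 in the UMIs of the 3 genes (%, points with exact 95% binomial intervals) in 6 classes of cells, 4 of the early-anagen library thinned to 10000 UMIs per cell and 2 of the bulb library thinned to 5000. Right, summed CPM of the 3 genes, between 2043 and 2373 in the early-anagen classes and 1601 and 1550 in the bulb classes.

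Of the 9 factors, 3 (33.3%) were at least 1.5-fold higher in the bulb and 2 (22.2%) lower, against 27% and 36% of all genes. Ndufaf1, which works early in the assembly of complex I, had 783 UMIs or 10.3 CPM at early anagen and 984 UMIs or 17.6 CPM in the bulb, a log2 ratio of 0.77 (0.63 to 0.91). Ndufaf2, which binds complex I late in its assembly, had 4007 UMIs or 52.9 CPM and 1367 UMIs or 24.5 CPM, a log2 ratio of -1.11 (-1.20 to -1.02). Ndufaf6, named because only 4 members were lower by 1.5-fold, had 19.3 and 12.5 CPM and a log2 ratio of -0.62 (-0.75 to -0.49). Factors for the same complex therefore differed in both directions. Cox7a2l, which joins complexes III and IV into supercomplexes, had 343 and 393 CPM and a log2 ratio of 0.20 (0.17 to 0.22).

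The windows of 250 bases before the start sites of members were read from RefSeq (GRCm38.p6), which held 75 of the 91 genes, and are shown for the genes with the largest ratios and for the subunit c genes. Motifs for factors known to bind promoters of respiratory genes were searched on both strands as exact letters: GCGCANGCG for NRF1, CCGGAAG for the ETS family with GABPA, and AAGATGGC for YY1. Capitals mark the letters of a match. The windows were chr17:31519865-31520114 (plus strand) for Ndufv3, chr5:115348959-115349208 (minus strand) for Cox6a1, chr11:96075632-96075881 (minus strand) for Atp5g1, chr15:102671048-102671297 (minus strand) for Atp5g2 and chr2:73911327-73911576 (minus strand) for Atp5g3, each printed 5′ to 3′ on the strand of the gene.
Ndufv3: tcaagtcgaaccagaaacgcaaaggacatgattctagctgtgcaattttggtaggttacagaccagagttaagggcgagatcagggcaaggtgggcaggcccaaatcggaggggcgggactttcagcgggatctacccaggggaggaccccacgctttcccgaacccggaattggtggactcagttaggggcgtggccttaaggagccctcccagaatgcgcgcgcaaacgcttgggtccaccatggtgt
Cox6a1: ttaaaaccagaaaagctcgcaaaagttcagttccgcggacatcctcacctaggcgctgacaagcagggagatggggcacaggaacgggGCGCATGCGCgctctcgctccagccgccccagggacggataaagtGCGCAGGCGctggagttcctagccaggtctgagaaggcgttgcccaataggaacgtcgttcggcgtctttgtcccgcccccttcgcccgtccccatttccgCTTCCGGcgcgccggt
Atp5g1: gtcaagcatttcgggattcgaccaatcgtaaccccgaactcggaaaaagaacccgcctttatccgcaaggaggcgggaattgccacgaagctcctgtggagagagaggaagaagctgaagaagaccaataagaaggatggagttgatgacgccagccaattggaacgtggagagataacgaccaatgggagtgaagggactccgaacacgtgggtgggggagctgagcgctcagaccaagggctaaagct
Atp5g2: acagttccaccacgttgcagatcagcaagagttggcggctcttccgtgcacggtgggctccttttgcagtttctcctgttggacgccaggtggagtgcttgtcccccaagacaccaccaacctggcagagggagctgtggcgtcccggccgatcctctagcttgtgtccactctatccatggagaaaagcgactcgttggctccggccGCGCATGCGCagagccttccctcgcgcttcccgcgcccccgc
Atp5g3: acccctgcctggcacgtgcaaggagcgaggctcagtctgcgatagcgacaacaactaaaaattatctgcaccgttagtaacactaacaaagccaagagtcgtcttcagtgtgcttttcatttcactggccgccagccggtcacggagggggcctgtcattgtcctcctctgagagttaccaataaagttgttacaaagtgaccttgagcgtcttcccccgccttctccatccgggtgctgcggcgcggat

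An NRF1 match was found in 14 of 75 members (18.7%) and in 7.24% of 17492 protein-coding genes, overlapping matches being counted as 1. An ETS match was found in 13 of 75 members (17.3%) and in 9.13% of all genes. Both motifs contain the letters CG, of which a window held a median of 15 in members and 10 in all protein-coding genes. The part of CG content in these shares was not tested. A YY1 match was found in 0 of 75 members and in 1.51% of all genes. Sites at or after the start lay outside the windows and could not be found. Among members at least 1.5-fold higher in the bulb, 7 of 30 had an NRF1 match and 7 of 30 an ETS match. Among the other members of at least 10 CPM, 7 of 43 and 6 of 43 did. Of the windows shown, that of Cox6a1 held 2 NRF1 matches and 1 ETS match, and that of Atp5g2 held 1 NRF1 match. Those of Ndufv3, Atp5g1 and Atp5g3 held none of the motifs. The motifs occurred in members with either direction, and a match is a description of letters only.

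Genes that serve the same pathway outside the list were described in the same way. The 13 protein genes of mitochondrial DNA summed to 29901 CPM at early anagen and 28101 CPM in the bulb, a log2 ratio of -0.09 that became 0.22 with TMM factors. Cells had been chosen by their mitochondrial share, which bounds this sum. Of the 13 genes, 1 (7.69%) was at least 1.5-fold higher in the bulb and 7 (53.8%) were lower by that fold. Of all genes, 27% and 36% were. The largest differences were in subunits of complex I, with mt-Nd1 going from 1947 to 4413 CPM, a log2 ratio of 1.18 (1.17 to 1.19). The gene mt-Nd6, on the other strand of the circular genome from the rest, went from 46.2 to 2.22 CPM, a log2 ratio of -4.38 (-4.65 to -4.12). Mitochondrially encoded genes thus differed in opposite directions between libraries made with different kits, and the part of the kit was not tested.

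Among electron carriers, their enzymes and the inhibitor of ATP synthase, 1 of 8 (12.5%) was 1.5-fold higher in the bulb, against 27% of all genes, and none lower, against 36%. This was Slc25a4, an ADP/ATP carrier, with 1393 CPM at early anagen and 2540 CPM in the bulb and a log2 ratio of 0.87 (0.86 to 0.88). Its paralog Slc25a5 had 899 and 1011 CPM and a log2 ratio of 0.17 (0.15 to 0.19). Cycs, cytochrome c itself, had 317 and 430 CPM and a log2 ratio of 0.44 (0.41 to 0.47). Cyc1, the cytochrome c1 of complex III, had 278 and 288 CPM and a log2 ratio of 0.05 (0.03 to 0.08). The electron transfer flavoprotein genes had log2 ratios of 0.10 (Etfa), 0.34 (Etfb) and 0.51 (Etfdh). Atpif1, which inhibits ATP synthase running in reverse, was the only gene of the group below 0, with 477 and 392 CPM and a log2 ratio of -0.28 (-0.31 to -0.26) that turns positive with TMM factors by their shift of 0.31.

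Assembly factors outside the list had 15 of 32 genes (46.9%) at least 1.5-fold higher in the bulb and 1 (3.13%) lower. Of all genes, 27% and 36% were. Tmem126b, of the assembly of complex I, went from 15.2 to 51.7 CPM, a log2 ratio of 1.77 (1.67 to 1.87). Timmdc1, of the same assembly complex, went from 30.1 to 13.8 CPM, a log2 ratio of -1.12 (-1.24 to -1.0). Opposite directions thus occurred within 1 assembly complex. The tricarboxylic acid cycle, which feeds the chain with NADH and succinate, had 2 of 17 genes (11.8%) higher and 4 (23.5%) lower by 1.5-fold, against 27% and 36% of all genes. Mdh2, malate dehydrogenase, went from 421 to 719 CPM, a log2 ratio of 0.77 (0.75 to 0.79). Idh2, the NADP-dependent isocitrate dehydrogenase, went from 514 to 136 CPM, a log2 ratio of -1.92 (-1.96 to -1.89). Mitochondrial ribosomal proteins had 12 of 78 genes (15.4%) higher and 11 (14.1%) lower, from Mrpl44 with a log2 ratio of 1.5 (1.45 to 1.55) to Mrpl9 with -1.37 (-1.46 to -1.29). The median log2 ratio of the cycle was -0.37, -0.05 with TMM factors and 0.06 with median-of-ratios factors, and that of the mitochondrial ribosome was 0.18, 0.49 and 0.60. The difference of these groups from the nuclear respiratory genes was not tested.

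Of 9 regulators of mitochondrial gene expression of at least 10 CPM, 5 (55.6%) were lower in the bulb by 1.5-fold, against 36% of all genes, and 1 (11.1%) was higher, against 27%. This level is the mean of both groups, for these as for all genes. Ppargc1a, Myc and Gabpa were below 10 CPM in the bulb and reached it only through early anagen. The share of regulators lower is therefore not read as a result about them. Ppargc1a, a coactivator of mitochondrial biogenesis, had 2327 UMIs or 30.7 CPM at early anagen and 378 UMIs or 6.76 CPM in the bulb, a log2 ratio of -2.18 (-2.34 to -2.03). Yy1 had 154 and 44.4 CPM and a log2 ratio of -1.79 (-1.86 to -1.73). Myc, of growth control, had 19.8 and 6.48 CPM and a log2 ratio of -1.61 (-1.78 to -1.45). The other genes lower by 1.5-fold bind nuclear promoters or mitochondrial DNA. Gabpa had 26.6 and 9.57 CPM and a log2 ratio of -1.48 (-1.62 to -1.34). Tfam, which packages mitochondrial DNA, had 32.1 and 14.1 CPM and a log2 ratio of -1.19 (-1.30 to -1.07). Esrra, a nuclear receptor partnered by Ppargc1a, was the exception with 11.7 and 26.3 CPM and a log2 ratio of 1.16 (1.04 to 1.29).

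The remaining regulators lay closer to equal CPM or were rare. Mitf, the master regulator of melanocytes, had 446 and 330 CPM and a log2 ratio of -0.44 (-0.46 to -0.41). Nrf1 had 17.8 and 15.8 CPM and a log2 ratio of -0.17 (-0.29 to -0.04). Tfb2m, of mitochondrial transcription initiation, had a log2 ratio of -0.02 (-0.12 to 0.08). Signs of these small ratios other than Mitf turn with TMM factors. Ppargc1b, Pprc1, Tfb1m and Polrmt were below 10 CPM, with log2 ratios of -0.23, -1.08, -0.76 and 0.04.

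Within the early-anagen library, cells were divided by Oca2, which codes for a melanosomal transport protein needed for pigment and is the gene by which the study divided these cells. Each cell was thinned to 10000 UMIs, after which 288 cells had an Oca2 UMI and 2497 had none, compared with 454 of 2785 cells (16.3%) on all UMIs. The 91 genes summed to 36221 CPM in Oca2- cells and 37555 CPM in Oca2+ cells, a log2 ratio of 0.05 (0.04 to 0.06). Of 85 members of at least 10 CPM, 0 were higher by 1.5-fold, where 5.53% of all genes were, and 1 was lower, where 5.43% were. Their median log2 ratio was 0.06, against 0.03 over all 7446 genes. In the same cells the melanocyte markers went from 23791 to 40736 CPM, so a difference in pigment genes within the library came with almost none in the respiratory genes.

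Single members differed by small amounts between Oca2+ and Oca2- cells. Complex III had the largest summed ratio of the 5 complexes, from 3762 to 4133 CPM, a log2 ratio of 0.14 (0.11 to 0.16). Uqcrh, the hinge protein next to cytochrome c1, went from 773 to 912 CPM, a log2 ratio of 0.24 (0.18 to 0.30). In complex I the ends were Ndufs4, with 194 and 229 CPM and a log2 ratio of 0.24 (0.12 to 0.36), and Ndufa5, with 178 and 150 CPM and -0.25 (-0.40 to -0.11). All these ratios were well under 1.5-fold. In complex II, Sdhb had a log2 ratio of 0.16 (0.04 to 0.27) and Sdha one of -0.10 (-0.28 to 0.08). In complex IV, Cox6b2 had 72 UMIs in Oca2+ cells and a log2 ratio of 0.30 (-0.08 to 0.66), and Cox5a had 690 and 613 CPM and -0.17 (-0.24 to -0.10). In complex V, Atp5md, a small subunit of the dimer interface, had 0.15 (0.06 to 0.24) and Atp5g2 had 1098 and 1006 CPM and -0.13 (-0.18 to -0.07).

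Among the factors, Ndufaf2 was the only member past 1.5-fold, with 1259 UMIs or 50.4 CPM in Oca2- cells and 95 UMIs or 33.0 CPM in Oca2+ cells, a log2 ratio of -0.61 (-0.93 to -0.31). It no longer passed 1.5-fold on all UMIs of each cell or at 5000 UMIs per cell, where 0 members were lower by that fold. Ndufaf1 had 40 UMIs in Oca2+ cells and a log2 ratio of 0.54 (0.02 to 1.02). Mitochondrially encoded genes went from 30286 to 33955 CPM, a log2 ratio of 0.16 (0.16 to 0.17), with none of 13 past 1.5-fold. The limit on the mitochondrial share of the chosen cells bounds these sums. Of the regulators, Mitf went from 407 to 720 CPM, a log2 ratio of 0.83 (0.76 to 0.89), and Esrra from 11.9 to 18.4 CPM, a log2 ratio of 0.63 (0.18 to 1.06). Ppargc1a went from 28.8 to 42.4 CPM, a log2 ratio of 0.56 (0.27 to 0.84). Ppargc1a was thus higher in Oca2+ than in Oca2- cells of the early-anagen library, and lower in the bulb library, where 3591 of 3734 cells (96.2%) had an Oca2 UMI.

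Early-anagen cells were next divided by Mki67 and Top2a, which are transcribed in dividing cells. At 10000 UMIs per cell, 1026 cells had a UMI of either gene and 1759 had none. The members summed to 35419 CPM in negative cells and 37970 CPM in positive cells, a log2 ratio of 0.10 (0.09 to 0.11). Of 85 members, 1 was higher by 1.5-fold, where 7.46% of all genes were, and 0 were lower, where 2.99% were. The median log2 ratio was 0.10, against -0.02 over all 7455 genes. Intervals lay above 0 for 53 members and below 0 for 10, and for 2053 and 2076 of all genes. The width of an interval depends on the UMIs of a gene, so these counts are not compared. The difference was thus small, spread over most members, and of about the same size in complexes I, III, IV and V, whose summed log2 ratios lay between 0.08 and 0.11. Complex II had 0.20 (0.16 to 0.25) and the factors -0.05 (-0.09 to -0.00). The members also rose with depth, from 33846 CPM in the shallowest to 37948 CPM in the deepest of 3 equal groups of cells by UMIs. The part of depth in the division was not tested.

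Ndufaf2 was again the member furthest from the rest, with 665 UMIs or 37.8 CPM in negative cells and 689 UMIs or 67.2 CPM in Mki67/Top2a+ cells, a log2 ratio of 0.83 (0.67 to 0.98). Its gene (chr13:108002715-108158623) overlaps Smim15 by 4727 bases and B230220B15Rik by 1955 bases, both on the opposite strand, and whether strand was used in counting was not given in the sources used here. Sdhd had 121 and 155 CPM and a log2 ratio of 0.36 (0.26 to 0.45). Ndufab1, the mitochondrial acyl carrier protein that also serves the making of iron-sulphur clusters and lipoate, had 321 and 409 CPM and a log2 ratio of 0.35 (0.29 to 0.41). Both were below 1.5-fold. The largest ratios elsewhere were 0.31 (0.27 to 0.36) in Cox5a, 0.29 (0.24 to 0.34) in Uqcr10 and 0.26 (0.22 to 0.31) in Atp5j.

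Some members were lower in Mki67/Top2a+ cells. Ndufa6, an accessory subunit of complex I, had 268 CPM in negative and 229 CPM in positive cells, a log2 ratio of -0.23 (-0.30 to -0.16). Cox7a2l had 381 and 323 CPM and -0.24 (-0.30 to -0.18). Uqcrh had 816 and 737 CPM and -0.15 (-0.19 to -0.11). Cox4i1 had 1765 and 1619 CPM and -0.13 (-0.15 to -0.10), and Atp5l had -0.05 (-0.08 to -0.01). Uqcrh and Cox4i1 therefore had ratios of opposite sign in the Oca2 and the Mki67/Top2a divisions of the same cells. Because these divisions use the same cells, their ratios are not independent of each other.

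Other mitochondrial genes did not all go with the members in Mki67/Top2a+ cells. Mitochondrially encoded genes had 31909 CPM in negative and 28534 CPM in positive cells, a log2 ratio of -0.16 (-0.17 to -0.15), with all 13 ratios below 0. Mitochondrial ribosomal protein genes had 6547 and 7778 CPM, a log2 ratio of 0.25 (0.24 to 0.26). Of these, 4 of 76 (5.26%) were higher by 1.5-fold, against 7.46% of all genes. Cycs had 248 and 351 CPM and a log2 ratio of 0.50 (0.44 to 0.57). Nuclear and mitochondrial transcripts of the same complexes thus had ratios of opposite sign with these markers. Cells had been chosen by a mitochondrial share under 5%, which bounds the mitochondrial sums. With depth, mitochondrially encoded genes fell from 32328 CPM in the shallowest to 28389 CPM in the deepest group of early-anagen cells, while the members rose. The part of depth was not tested. Of the regulators, Tfb1m had 59 and 74 UMIs and a log2 ratio of 1.10 (0.59 to 1.62), Nrf1 had 14.6 and 20.2 CPM and 0.47 (0.19 to 0.74), and Esrra had 14.8 and 8.67 CPM and -0.77 (-1.13 to -0.42). Melanocyte markers went from 27761 to 21740 CPM between the same cells, and their part in these values was not tested.

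**Figure D4:**
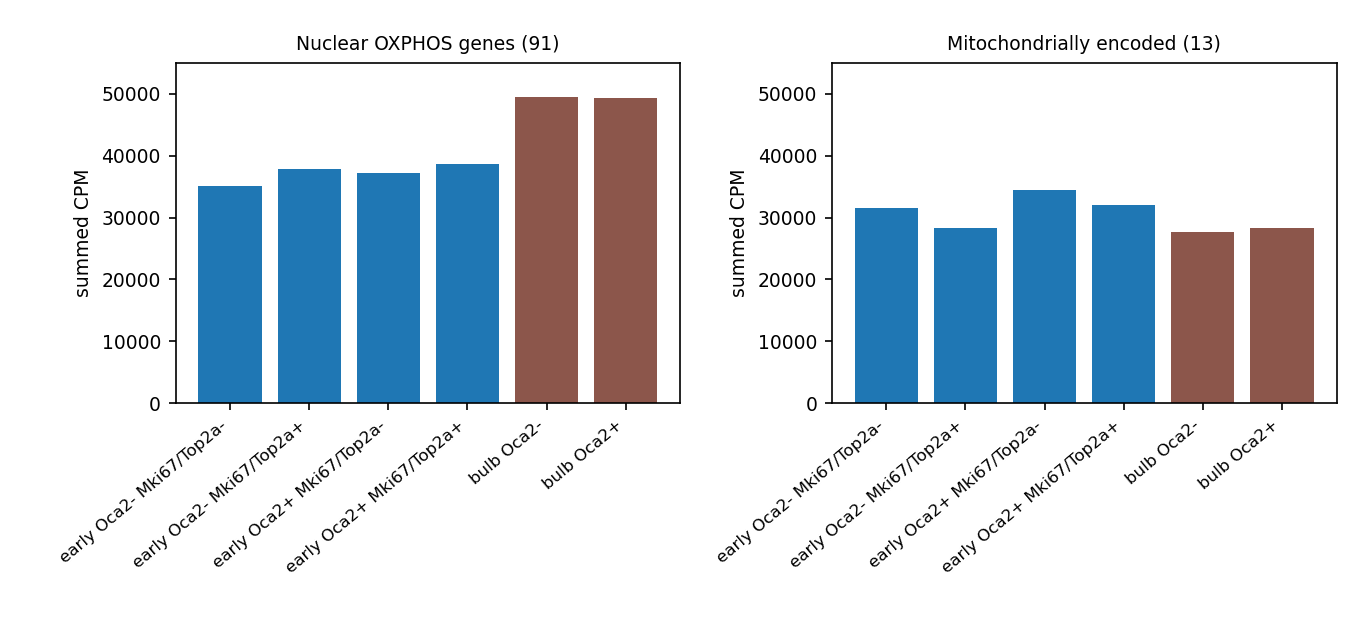
Summed CPM of the 91 nuclear genes (left) and the 13 mitochondrially encoded genes (right) in 4 classes of early-anagen cells, thinned to 10000 UMIs, and 2 classes of bulb cells, thinned to 5000. Nuclear genes ranged from 35167 to 38726 CPM in the early-anagen classes and reached 49468 and 49352 CPM in the bulb classes, while mitochondrially encoded genes ranged from 27678 to 34533 CPM with the classes of both libraries overlapping.

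Crossing both divisions placed every early-anagen class below the bulb. Cells without any of the UMIs (1540 cells) had 35167 CPM of nuclear genes, cells with Oca2 alone (219 cells) 37185 CPM, cells with Mki67 or Top2a alone (957 cells) 37916 CPM, and cells with both (69 cells) 38726 CPM. Bulb cells had 49468 CPM without and 49352 CPM with an Oca2 UMI. In CPM the range of the early-anagen classes was thus smaller than the gap between the libraries, and Oca2+ McSCs lay below bulb melanocytes. The size of the gap depends on the scaling, the summed log2 ratio of bulb over early anagen being 0.42 in CPM and 0.26 with the reduced total. Kit, depth, age, dissociation and the depilation described also differed between the libraries, and their part was not tested.

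In the bulb library the summed ratios of all members were close to 0 in both divisions. On all UMIs only 143 bulb cells had no Oca2 UMI, so many of the 479 cells counted as Oca2- lost theirs by thinning. This limits the difference that the Oca2 division could show. Between 3255 Oca2+ and 479 Oca2- cells the log2 ratio of the sum was -0.00 (-0.01 to 0.01), and the median over 86 members was -0.01 against -0.03 for all genes. The highest members were Ndufaf7 at 0.31 (-0.05 to 0.68), Sdhd at 0.13 (0.01 to 0.26) and Cox6b2 at 0.13 (-0.30 to 0.60). The lowest were Ndufaf2 at -0.39 (-0.77 to -0.00), Ndufaf4 at -0.28 (-0.55 to -0.01) and Ndufaf5 at -0.22 (-0.75 to 0.35). Except for Sdhd and Ndufaf2, these changed sign in at least 1 setting tried. Epidermal keratinocyte markers summed to 335 CPM in Oca2- and 20.2 CPM in Oca2+ bulb cells, and their part in these values was not tested.

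Only 56 bulb cells had a Mki67 or Top2a UMI at 5000 UMIs per cell, against 3678 without. Their members summed to 48296 and 49383 CPM, a log2 ratio of -0.03 (-0.06 to -0.01), and the median ratio was -0.02 against 0.04 for all genes. The complexes differed, with summed log2 ratios of -0.11 (-0.16 to -0.06) in complex I and 0.18 (0.02 to 0.35) in complex II. Complexes III, IV and V had -0.08 (-0.15 to -0.01), -0.02 and 0.04. The value of complex II became -0.01 with another random seed. Ndufaf2 had 15 UMIs in the 56 cells, or 53.6 CPM against 22.7 CPM, a log2 ratio of 1.24 (0.39 to 1.98). Ndufab1 had 149 UMIs and 0.53 (0.29 to 0.77), and Atp5g2 had 186 UMIs and 0.52 (0.31 to 0.73). Ndufaf2 and Ndufab1 thus had ratios above 0 in positive cells of both libraries. The lowest members were Ndufa6 at -0.63 (-0.97 to -0.31), Ndufb2 at -0.42 (-0.72 to -0.13) and Ndufaf4 at -0.39 (-1.45 to 0.50). Ndufa6 also lay below 0 in both libraries.

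Cells of the early-anagen library were more unlike each other in these genes than bulb cells. On all UMIs the members' share of a cell's UMIs had a median of 3.66%, with quartiles of 3.25% and 4.07% and a range of 1.45% to 6.70%. In the bulb the median was 4.92%, with quartiles of 4.59% and 5.26%. With every cell thinned to 5000 UMIs, the variance of the members' UMIs over cells was 6.29 times their mean at early anagen and 3.65 times in the bulb. Counting error alone would give about 1. Early-anagen cells thus ranged widely, and part of that range went with depth, the median share being 3.36%, 3.75% and 3.80% in the shallowest, middle and deepest of 3 equal groups of cells by UMIs. In the bulb it was 4.91%, 4.95% and 4.91%.

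The number of Oca2 or of cycling-gene UMIs within a cell went with small steps only. In early-anagen cells at 10000 UMIs the median share was 3.65% with no Oca2 UMI, 3.81% with 1, 3.70% with 2 to 3 and 3.87% with 4 or more. With Mki67 and Top2a UMIs it was 3.57% at 0, 3.89% at 1 to 2, 3.84% at 3 to 5 and 3.67% at 6 or more. The highest median thus fell in cells with few Mki67 and Top2a UMIs and not in those with the most. The spread was widest in cells with no Mki67 or Top2a UMI, where the variance was 13.3 times the mean, against 8.38 times with 1 to 2 UMIs, 5.83 times with 3 to 5 and 6.29 times with 6 or more. In bulb cells at 5000 UMIs the median was 5.00% with no Oca2 UMI, 4.94% with 1 to 2, 4.88% with 3 to 5 and 4.82% with 6 or more, steps that were small beside the spread over cells.

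**Figure D5:**
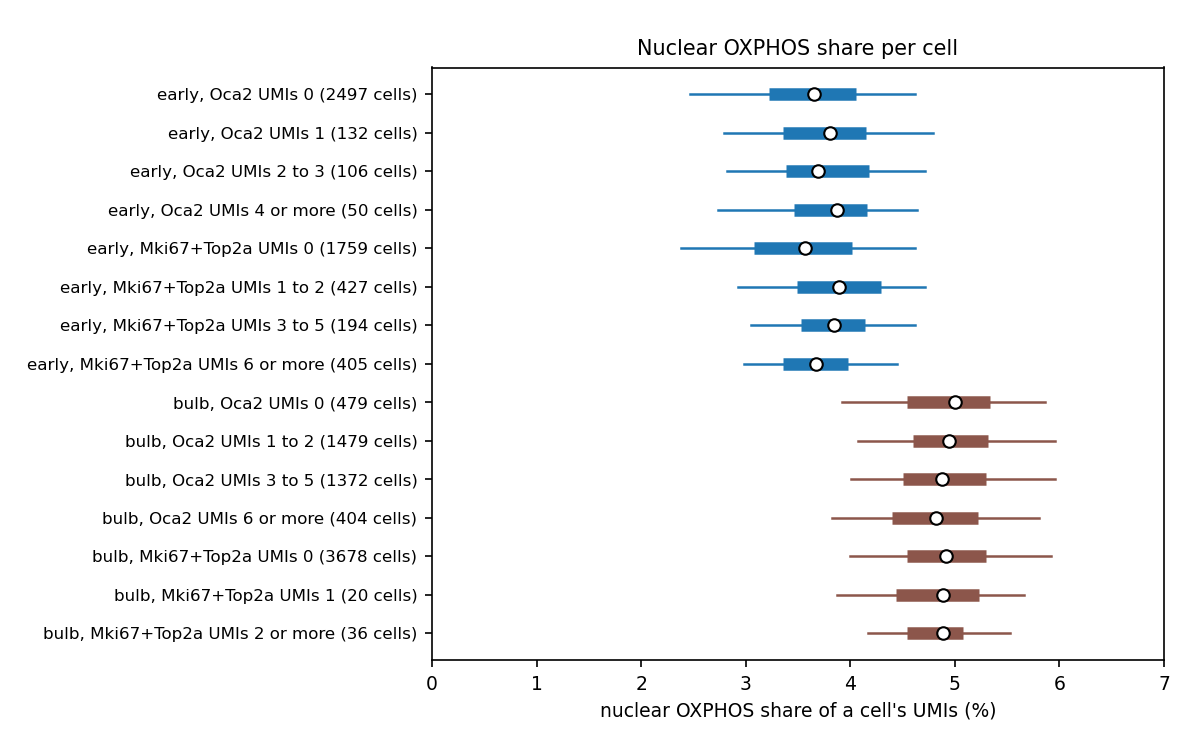
Share of a cell's UMIs from the 91 genes, in %, by library and by UMIs of Oca2 or of Mki67 plus Top2a in the same cell, with cells thinned to 10000 UMIs (early anagen, blue) or 5000 UMIs (bulb, brown). White points are medians, thick bars run from the 25th to the 75th and thin lines from the 5th to the 95th percentile of cells; every bulb median lies above every early-anagen median, and early-anagen medians run from 3.57% to 3.89%.

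Complexes went together from cell to cell, more so at early anagen. Over the 2785 early-anagen cells at 5000 UMIs, Spearman's rho was 0.56 between the UMIs of complexes I and V, 0.53 between I and IV, and 0.58 between IV and V. Over the 3734 bulb cells the values were 0.35, 0.34 and 0.36. The nuclear genes had a rho of -0.29 with the mitochondrially encoded genes at early anagen and -0.01 in the bulb, and of 0.50 and 0.20 with the mitochondrial ribosomal protein genes. These are descriptions over cells of 1 library each, which share their preparation and their fixed total of UMIs. The values for complexes were thus higher in the early-anagen library, where cells also varied more.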

How the data were processed

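The authors deposited UMI counts per gene and cell barcode, unnormalized, for 2 single-cell libraries, made with Cell Ranger 6.0.1 on mm10 (GRCm38). Gene coordinates came from GENCODE M21 by gene ID and promoter windows from RefSeq; 67 of 75 windows ran into a transcript start of the gene in the printed direction. Reads shared with processed pseudogenes or paralogs, frequent for these genes, may be missing from the counts.

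Counts of the cells in a group were added up and expressed as CPM. A gene was compared from a mean of 10 CPM, and a fold of 1.5 was counted in each direction. Intervals are exact Poisson, conditional binomial or Clopper-Pearson at 95% and cover counting error only. A gene at 0 in a group was given no ratio. Divisions within a library used cells thinned to 10000 (early anagen) or 5000 (bulb) UMIs, and the dividing genes were left out. Cells were not replicates, so no p-value was computed. Doublets were not called, and leaving out the 5% of cells with the most UMIs was tried instead. The ratios were tested on simulated Poisson counts, which lack the spread over cells found in these data, so the effect of that spread was not tested.

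Members, gene lists and divisions were chosen with earlier results of these data known. Named were, per complex, the member with the most UMIs and the largest ratio in each direction, tissue isoforms and paralogs, all Sdh genes, the 3 extremes of the bulb divisions, every regulator and electron carrier (within early anagen, those with the largest ratios), and the extremes of other lists. Of the genes that this rule names, 1 is not reported here. Alternatives were other scalings (edgeR 4.0.16 TMM factors, median-of-ratios size factors, a total without mitochondrial, ribosomal protein and pigmentation genes), the mean of each cell's CPM, other cell limits, depths, definitions and folds. R 4.3.3, Python 3.11.15, numpy 2.4.6, scipy 1.17.1, pandas 2.3.3 and matplotlib 3.10.9 were used.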

Additional observations from a re-analysis of the deposited data

Results flagged for a closer look

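Some summed ratios had opposite signs in the early-anagen and bulb libraries under the same division of cells, and the difference between the libraries was not tested. For Oca2+ over Oca2- cells, complex I had a log2 ratio of 0.0558 at early anagen and -0.0186 in the bulb, and complex V had 0.0324 and -0.0190. For Mki67/Top2a+ over negative cells, complex I had 0.0978 at early anagen and -0.11 in the bulb, and complex III had 0.0775 and -0.0783, the bulb values resting on 56 positive cells. The bulb value of complex III (-0.152 to -0.0058) became 0.0193 among cells with an Oca2 UMI, the sign of early anagen.

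Ndufb1-ps, left out only because its symbol contains -ps, held 31683 UMIs in early-anagen cells and 21842 UMIs in bulb cells. Whether it codes for a working subunit of complex I was not examined. These were 418 and 391 CPM, a log2 ratio of -0.10 (-0.12 to -0.07), a level within the range of complex I subunits.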

How the results depend on the processing

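For bulb over early anagen, the members' median log2 ratio of 0.45 became 0.76 with TMM factors, 0.87 with median-of-ratios factors and 0.29 with the reduced total. Members higher by 1.5-fold, 31 of 86, became 53, 65 and 23, and members lower, 4, became 2, 2 and 5. Of all genes, 2659 of 6993, 2925 of 6888 and 1755 of 8040 were higher with these scalings, and 1902, 1653 and 3374 lower. At 2-fold 10 members were higher and 2 lower, where 1194 and 1885 of all 7298 genes were. The share of members higher at 2-fold was thus below that of all genes. Under the other cell limits, depths and gene minimum tried, the median stayed between 0.43 and 0.47. For Oca2+ over Oca2- early-anagen cells, 2 members were lower by 1.5-fold with at least 2 Oca2 UMIs, where 543 of 7444 genes were. On all UMIs and at 5000 UMIs per cell 0 were, where 229 of 7472 and 580 of 7461 genes were. Those higher numbered 1 at 5000 UMIs and 1 among cells without Mki67 or Top2a UMIs, where 619 of 7461 and 475 of 7338 genes were. At the smaller fold tried (5 to 4) 2 were higher and 3 lower, where 1279 and 998 of 7446 genes were. For Mki67/Top2a+ over negative early-anagen cells, with genes of at least 1 UMI in both groups 2 were higher and 1 lower. Of all 14804 such genes, 2333 were higher and 1782 lower. At that smaller fold 5 members were higher, where 1180 of 7455 genes were. None of these medians changed sign. Signs of single values changed in 9 of 412 values for bulb over early anagen, 2 of 130 and 0 of 130 for the early-anagen divisions, and 12 of 90 and 7 of 90 for the bulb divisions. The log2 ratio of Ndufa4l2, -2.30, was -7.79 without the Dct and Krt limits, because the cells left out hold most of its early-anagen UMIs. Depth limits Cox4i2, Cox8b and Cox8c, and all members in the 56 bulb cells with Mki67 or Top2a. No paired analysis was possible because each condition has 1 library and no replicate numbers are shared.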
